A study of Mus musculus with 12 samples.

Results

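Growth hormone receptor signalling and the insulin-like growth factor (IGF) system were described in male and female mouse liver through 10 genes, Ghr, Prlr, Igf1, Igfals, Socs2, Cish, Stat5a, Stat5b, Igfbp1 and Igfbp2. The genes were chosen by symbol, with earlier results of these data known, and all 10 were found among the 24197 RefSeq genes of the deposited table. Each was above 0 FPKM (fragments per kilobase, scaled to library size) in all groups. Some values join several RefSeq transcripts of a gene, of which only the first is named below. There were 3 for Ghr, 3 for Prlr, 5 for Igf1, 4 for Socs2 and 2 each for Stat5a and Stat5b. Transcript forms of a gene were therefore not told apart. The livers came from CD-1 mice, an outbred stock, that were untreated, labelled Intact and 7 to 11 weeks old. The 12 libraries formed 4 groups of 3 pools each, namely female total RNA, male total RNA, female nuclear RNA and male nuclear RNA, and a pool joined RNA of 12 to 17 mice. Nuclei were purified through sucrose by ultracentrifugation, and all RNA was depleted of ribosomal RNA, in part only per the labels.

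Growth hormone from the pituitary binds its receptor on hepatocytes, and the bound receptor activates the kinase JAK2, which phosphorylates the transcription factors STAT5A and STAT5B. STAT5 then drives Igf1 and Igfals, whose products are parts of the circulating IGF complex, as well as Socs2 and Cish, which dampen the signal. In rodents growth hormone is released in pulses in males and almost continuously in females, and this pattern is a known source of sex differences in liver. IGF-binding proteins carry IGFs in blood. Igfbp1 is known to be repressed by insulin, and Igfbp2 is a further hepatic carrier.

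Values in the table were group means, so each level below is the authors' mean over 3 pools, with no SD. Sex differences were judged by the adjusted p of the authors' deposited table, and called where it was under 0.05. Every sex difference is written as log2 of male over female, negative where females were above males. The 12 library sizes, worked out from single-read FPKM values, ran from 11.3 to 24.4 Mreads (megareads), with a male total library the smallest. At these sizes the member means rested on about 80.2 reads (Igfbp2 in female nuclear RNA) to 14302 reads (Igf1 in female total RNA), a counting error of 11.2% down to 0.836%. By the lane numbers in the labels, lane 3 held the 3 male total pools and 1 female total pool. Lane 4 held the other 2 female total pools and every nuclear pool. Sex and lane can therefore not be told apart fully in total RNA, and the nuclear comparison lay within lane 4. Hepatocyte markers were abundant, with albumin (Alb) at 5481 FPKM in female and 2711 in male total RNA. Of the 4 measured, Alb and Cps1 were called higher in females in total RNA (log2 -0.61 and -0.46), and Apoa1 higher in males in both fractions (log2 0.53 and 0.58), in the authors' deposited table. Xist was at 22.02 FPKM in female and 0.0215 in male total RNA, and the 4 Y-linked genes listed were called higher in males in both fractions. The nuclear RNAs Malat1 and Neat1 were 3.67 and 3.55 times as high in nuclear as in total RNA of females.

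The deposited log2 values are scaled between libraries. For genes of at least 1 FPKM in both sexes their median was 0.03 in total RNA and 0.01 in nuclear RNA, whereas the plain quotient of the deposited means had a median of -0.44 and -0.11. Male means in total RNA thus read low beside female means for the median gene, and sex differences are given relative to that shift.

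In total RNA, 5 of the 10 genes were called, all higher in females, in the authors' deposited table: the prolactin receptor Prlr, the binding protein gene Igfbp1, the IGF complex gene Igfals, the feedback inhibitor Socs2 and the transcription factor Stat5a. Over all 16404 genes above 0 in total RNA, 4.46% were called, 2.36% higher in females and 2.10% higher in males. Among the 6175 genes of at least 1 FPKM, the share called was 9.17%, with 4.81% higher in females and 4.36% higher in males. In nuclear RNA 4 of the 10 were called in the authors' deposited table, Prlr, Igfbp1 and Stat5a higher in females and Ghr higher in males. There 5.80% of 17467 genes were called, 2.98% higher in females and 2.82% higher in males. Among the 5759 genes of at least 1 FPKM it was 13.5%, with 7.12% higher in females and 6.41% higher in males. The median log2 of the 10 genes in the authors' deposited table was -0.53 in total and -0.28 in nuclear RNA, beside -0.03 and 0.00 over all genes above 0. Prlr, Igfbp1 and Stat5a were called in both fractions, and Igf1, Cish, Stat5b and Igfbp2 in neither.

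**Figure D1:**
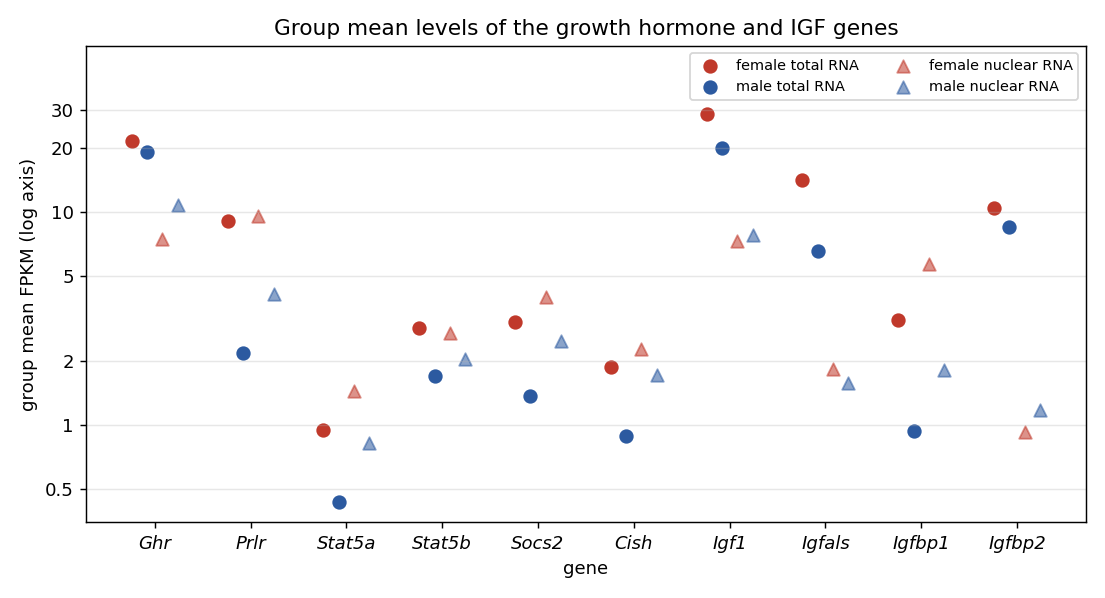
Group mean FPKM (log axis) of the 10 genes in female (red) and male (blue) total RNA (circles) and nuclear RNA (triangles); each point is the authors' mean of 3 pools. Igf1, Ghr, Igfals and Igfbp2 stand clearly lower in nuclear than in total RNA, while Prlr, Stat5a, Socs2, Cish and Igfbp1 do not.

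The pair of receptors moved in opposite directions in nuclear RNA. Ghr (NM_010284, mm9 chromosome 15, 3267755 to 3533352), the growth hormone receptor, stood at 21.5 FPKM in female and 19.004 in male total RNA. Its nuclear mean was 7.46 FPKM for females and 10.7 for males, so that males were above females. The authors' deposited table gave log2 0.64 with adjusted p = 1.25e-09 in nuclear RNA. It gave log2 0.32 with adjusted p = 0.0852 in total RNA, where Ghr was not called and the unscaled means pointed the other way (-0.18).

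Prlr (NM_011169, chromosome 15, 10106993 to 10278935) encodes the prolactin receptor, a class I cytokine receptor like Ghr that also signals through STAT5. Its mean was 9.07 FPKM in female and 2.17 in male total RNA, and 9.56 FPKM in female and 4.11 in male nuclear RNA. Females were above males in both fractions. For Prlr the authors' deposited table listed log2 -1.61 with adjusted p = 4.87e-43 in total RNA and log2 -1.10 with adjusted p = 1.73e-13 in nuclear RNA.

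The balance of the receptors can be read inside a group, where no scaling between the sexes enters. Ghr was 2.37 times the level of Prlr per length in female and 8.77 times in male total RNA. In nuclear RNA of females Ghr lay below Prlr (quotient 0.781), and in males it was 2.61 times as high. The quotient was therefore 3.70 times as high in males in total RNA and 3.34 times in nuclear RNA. These quotients are of group means and have no test. They join all transcript forms of each receptor gene and do not single out a form that signals.

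**Figure D2:**
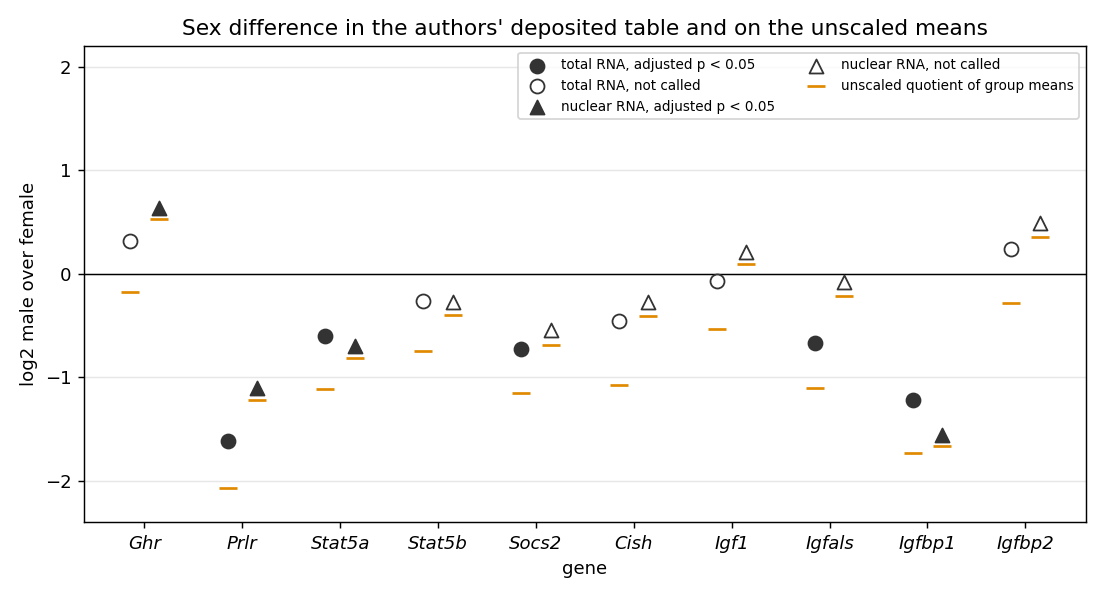
Log2 male over female in the authors' deposited table for total RNA (circles) and nuclear RNA (triangles), filled where adjusted p was under 0.05, with the unscaled quotient of group means as orange bars. Of the filled symbols, the nuclear value of Ghr (0.64) is the only positive one; the bars of total RNA lie lower than the circles for all 10 genes.

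The STAT5 genes are neighbours on mm9 chromosome 11, 8765 bp apart on opposite strands. Stat5a (NM_011488, 100720665 to 100746483) was the lowest of the 10 genes in total RNA, at 0.946 FPKM in females and 0.436 in males. It stood at 1.45 FPKM in female and 0.822 in male nuclear RNA. Females were above males in both fractions, with log2 -0.60 with adjusted p = 0.0424 in total RNA and log2 -0.69 with adjusted p = 0.0117 in nuclear RNA in the authors' deposited table. These means rested on about 95.7 reads in male total RNA and 373 in female nuclear RNA.

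Stat5b (NM_011489, 100642045 to 100711899), known as the main STAT5 of male growth hormone action in mouse liver, was at 2.85 FPKM in female and 1.70 in male total RNA. Its nuclear means were 2.69 FPKM in females and 2.05 in males. It was called in neither fraction of the authors' deposited table (log2 -0.27 with adjusted p = 0.420 and log2 -0.27 with adjusted p = 0.388). Stat5b exceeded Stat5a 3.01 times in female and 3.89 times in male total RNA, and 1.86 and 2.49 times in nuclear RNA.

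The paralogs share sequence, and how reads were divided between them is uncertain. Of all 50-base windows of the protein-coding Stat5a transcripts in GENCODE M21, 14.7% also occur in Stat5b, and 11.1% of the Stat5b windows occur in Stat5a. No other pair among the 45 pairs of the 10 genes shared a window.

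Socs2 and Cish encode SH2 proteins of the SOCS family that STAT5 induces and that restrain cytokine receptors. Socs2 (NM_007706, chromosome 10, 94874124 to 94879491) was at 3.05 FPKM in female and 1.37 in male total RNA, and at 3.98 FPKM in female and 2.48 in male nuclear RNA. It was called higher in females in total RNA (log2 -0.73 with adjusted p = 0.00956) and not called in nuclear RNA (log2 -0.54 with adjusted p = 0.485) in the authors' deposited table. Cish (NM_009895, chromosome 9, 107199020 to 107204292) was at 1.87 FPKM in female and 0.891 in male total RNA, and at 2.28 FPKM in female and 1.72 in male nuclear RNA. Cish was not called in either fraction of the authors' deposited table (log2 -0.46 with adjusted p = 0.750 and log2 -0.28 with adjusted p = 0.849). Cish stood at 0.613 times the level of Socs2 in female and 0.648 times in male total RNA, and at 0.573 and 0.692 times in nuclear RNA, with no test.

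Igf1 and Igfals, which encode the growth factor and the acid-labile subunit that holds it in the circulating ternary complex, differed in their sex pattern. Igf1 (NM_010512, chromosome 10, 87321801 to 87399792) was the most abundant of the 10 genes in total RNA, at 28.8 FPKM in females and 19.9 in males. Its nuclear means were 7.34 FPKM in females and 7.81 in males. Igf1 was not called in total RNA (log2 -0.07 with adjusted p = 1) or in nuclear RNA (log2 0.21 with adjusted p = 0.472) in the authors' deposited table.

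Igfals (NM_008340, chromosome 17, 25015715 to 25018953) was at 14.1 FPKM in female and 6.56 in male total RNA, and at 1.83 FPKM in female and 1.58 in male nuclear RNA. Females were above males in total RNA, with log2 -0.67 with adjusted p = 1.22e-05 in the authors' deposited table. In nuclear RNA Igfals was not called (log2 -0.08 with adjusted p = 1 in the authors' deposited table), on about 319 reads in females and 270 in males. Between the fractions of the authors' deposited table the log2 of Igfals differed by 0.59, nuclear above total, the widest gap among the 10 genes, and this difference between fractions was not tested. Igf1 was 2.05 times the level of Igfals in female and 3.04 times in male total RNA. Against Ghr, the quotient of Igf1 was lower in males, at 1.34 in female and 1.05 in male total RNA and at 0.983 and 0.728 in nuclear RNA. The quotient of Socs2 to Ghr was likewise lower in males, at 0.142 and 0.0723 in total RNA and 0.534 and 0.231 in nuclear RNA.

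The binding protein genes parted. Igfbp1 (NM_008341, chromosome 11, 7097790 to 7102549) was at 3.11 FPKM in female and 0.939 in male total RNA, and at 5.72 FPKM in female and 1.80 in male nuclear RNA. Females were above males in both fractions, at log2 -1.22 with adjusted p = 2.08e-06 in total RNA and log2 -1.56 with adjusted p = 8.29e-18 in nuclear RNA in the authors' deposited table. Its nuclear log2 was the largest negative value among the 10 genes in that fraction. Igfbp2 (NM_008342, chromosome 1, 72871054 to 72899045) was at 10.4 FPKM in female and 8.51 in male total RNA, and at 0.925 FPKM in female and 1.18 in male nuclear RNA. It was not called in the authors' deposited table in total RNA (log2 0.23 with adjusted p = 0.908) or nuclear RNA (log2 0.49 with adjusted p = 0.572), and in total RNA its unscaled quotient had the other sign (-0.29). Igfbp2 was 3.33 times the level of Igfbp1 in female and 9.06 times in male total RNA, but only 0.162 and 0.656 times in nuclear RNA.

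**Figure D3:**
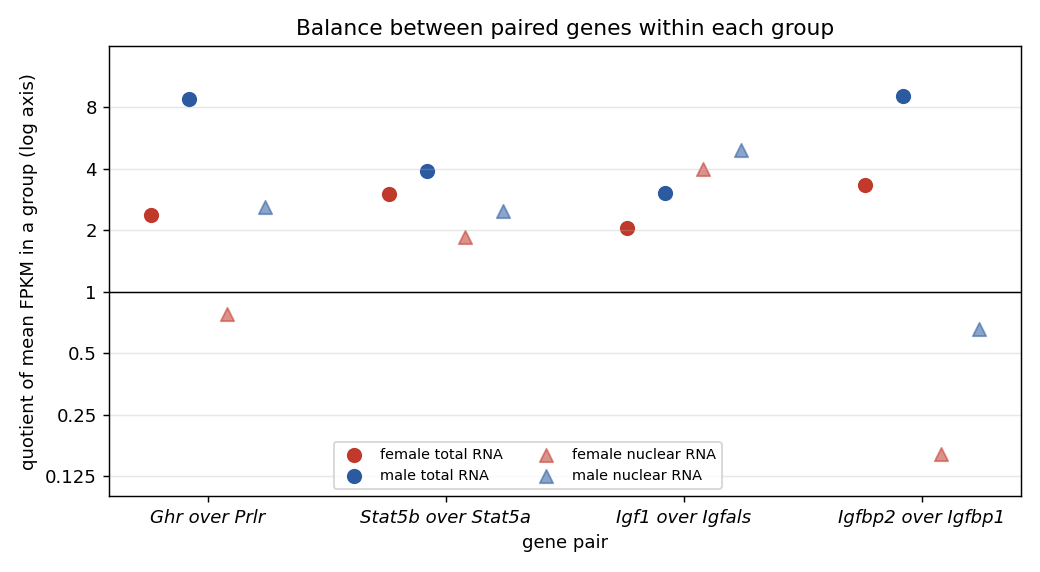
Quotient of the group mean FPKM of paired genes inside each group (log axis), with females in red, males in blue, total RNA as circles and nuclear RNA as triangles. In the 4 pairs drawn, written with this choice of numerator, the male quotient lies above the female one, from 1.23 times for Igf1 over Igfals in nuclear RNA to 4.05 times for Igfbp2 over Igfbp1 in nuclear RNA.

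The order of levels per length in female total RNA was Igf1, Ghr, Igfals, Igfbp2, Prlr, Igfbp1, Socs2, Stat5b, Cish and Stat5a. In male total RNA Igf1 and Ghr again led, followed by Igfbp2 and Igfals, and Cish and Stat5a came last. In female nuclear RNA Prlr led, followed by Ghr, Igf1 and Igfbp1, and Igfbp2 was last. In male nuclear RNA Ghr led and Stat5a was last. Values per pool were not analysed here, so neighbours in these orders, such as Ghr at 7.46 and Igf1 at 7.34 FPKM in female nuclear RNA, cannot be told apart or ranked beyond their spread.

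The genes fell into separate sets by fraction. The nuclear level against the total level was taken as log2((nuclear + 1)/(total + 1)) of the mean FPKM, less the median over the 7306 genes of at least 1 FPKM in a group. Igf1, Igfals, Igfbp2 and Ghr lay below that median in both sexes, and the other 6 lay above it. Igfbp2 was lowest, at -2.26 in females and -2.05 in males, followed by Igfals at -2.11 and -1.47, Igf1 at -1.54 and -1.17 and Ghr at -1.10 and -0.69. Igfbp1 was at 1.01 in females and 0.61 in males, Socs2 at 0.60 and 0.63, and Cish at 0.50 and 0.60. For scale, Malat1 was at 2.17 and 2.39, and Alb, a cytoplasmic messenger RNA of hepatocytes, at -4.21 and -3.76.

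Igfbp1 and Igfbp2 thus stood far apart: Igfbp2 had 11.2 times as much FPKM in total as in nuclear RNA of females, whereas Igfbp1 had 1.84 times as much in nuclear as in total RNA. Prlr was at 0.37 in females and 0.77 in males on the centred scale. Fraction and lane overlapped, so these values are a description. The set below the median depends on the reference genes. Against genes of at least 10 FPKM, Ghr moved above the median in both sexes (0.40 and 0.68) and Igf1 in males (0.20).

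**Figure D4:**
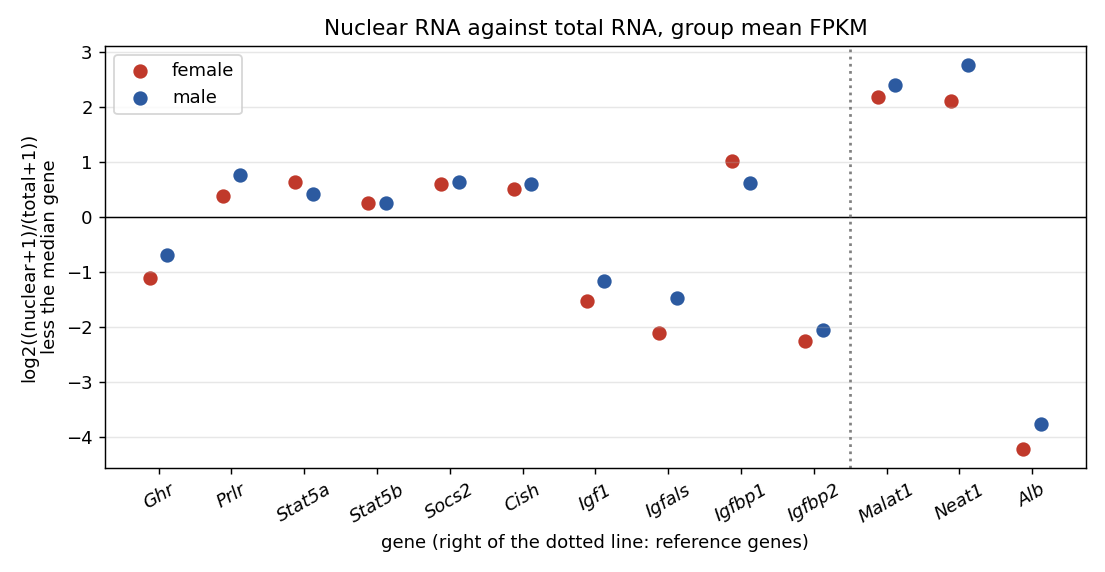
Level in nuclei relative to total RNA (log2 of group mean FPKM plus 1, less the median gene), in females (red) and males (blue), with Malat1, Neat1 and Alb as reference genes. Ghr, Igf1, Igfals and Igfbp2 lie under 0 in both sexes, between -0.69 and -2.26, and the other 6 genes lie above 0.

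Promoter sequence was read for the STAT5 motif TTCNNNGAA, which is its own reverse complement, so that a match counts on both strands and no other motif was searched. RefSeq windows of 300 bases (250 before to 50 after a start, GRCm38.p6) were held for 9 of the 10 genes, and Socs2 had none. Of the 17 windows of these genes 4 held the motif, from Prlr (1 of 3 windows), Igfals (2 of 3 windows) and Cish, beside 8.30% of all 32851 windows. By gene, 3 of the 9 had a match, beside 9.55% of all 27025 genes. The 9 genes had more windows per gene than all genes did, which gives more places for a match. The 2 gene shares are therefore not like for like. The following are shown because Prlr and Igfals were both called higher in females in total RNA, and because the uncalled Cish was the sole gene with 2 matches in a window. A link between a match and a sex difference was not tested, and which start is used in liver was not examined. Capitals mark the motif. The Prlr and Igfals stretches are the 250 bases before a start (chr15:10223656-10223905 and chr17:24877981-24878230, plus strand), and the Cish stretch is 30 bases around its start (chr9:107296654-107296683, plus strand).
Prlr: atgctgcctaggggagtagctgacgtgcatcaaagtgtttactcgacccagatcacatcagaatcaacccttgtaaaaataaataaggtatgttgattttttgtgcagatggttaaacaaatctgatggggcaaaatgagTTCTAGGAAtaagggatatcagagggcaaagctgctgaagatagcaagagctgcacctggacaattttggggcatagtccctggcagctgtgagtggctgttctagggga
Igfals: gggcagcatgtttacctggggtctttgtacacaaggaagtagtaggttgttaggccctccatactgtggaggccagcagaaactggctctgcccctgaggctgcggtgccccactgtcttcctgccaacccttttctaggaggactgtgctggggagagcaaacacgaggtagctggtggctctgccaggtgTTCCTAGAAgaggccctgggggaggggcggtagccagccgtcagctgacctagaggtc
Cish: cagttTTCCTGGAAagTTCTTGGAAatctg

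The match in Prlr began at position -110 from the start, that of Igfals at -58, and those of Cish at 1 and 12, counting the first transcribed base as 1. The other Igfals window held TTCTCAGAA at -236. A match describes letters in the window and no binding was measured here. Ghr, Igf1, Stat5a, Stat5b, Igfbp1 and Igfbp2 had no match in their windows.

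The lncRNA table listed 25 long noncoding RNAs that overlapped one of the 10 genes or lay within 50 kb of one, 10 of them around Socs2, 5 around Ghr and none around Prlr, Cish or Stat5a. Of the 22 above 0 in nuclear RNA, 3 were called at a false discovery rate (FDR) under 0.05, all higher in females, in the authors' deposited table, beside 4.88% of all 13118 lncRNAs above 0 in nuclear RNA. In total RNA none of the 18 above 0 were called (edgeR, per the legend of the authors' deposited table), beside 1.35% of 10706, and 3 had an unadjusted p under 0.05.

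Next to Igfbp1 lay the antisense ncRNA_as_chr11_9449 (chromosome 11, 7098239 to 7101983, minus strand, 2 exons), which falls inside the gene. Its mean was 1.38 RPKM (reads per kilobase, scaled to library size) in female and 0.476 in male nuclear RNA, and 0.0518 and 0.0143 RPKM in total RNA. The authors' deposited table gave log2 -1.41, FDR = 3.01e-05 in nuclear RNA, beside -1.56 for Igfbp1 itself. The library kit was directional per the labels, but no source used here says whether strand was used in counting, so reads of Igfbp1 and of its antisense RNA cannot be told apart. The antisense ncRNA_as_chr11_9447 (7050611 to 7052603, minus strand) lay 45187 bp away, at 0.831 RPKM in female and 0.310 in male nuclear RNA (log2 -1.30, FDR = 0.0451 in the authors' deposited table).

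Beside Socs2, the third called RNA, ncRNA_inter_chr10_9183, carries the RefSeq name 5730420D15Rik (chromosome 10, 94880009 to 94891274, plus strand, 5 exons). It begins 518 bp beyond the Socs2 start and runs away from it on the other strand. It stood at 1.74 RPKM in female and 0.546 in male nuclear RNA, with log2 -1.54, FDR = 0.0117 in the authors' deposited table. Listed also among the RefSeq genes, 5730420D15Rik was at 0.942 FPKM in female and 0.299 in male nuclear RNA, with log2 -1.52 with adjusted p = 0.00973 in the authors' deposited table. Both entries count the same locus and are not separate evidence. Of the nearest RNAs to the other genes, none were called. Within Ghr, the antisense ncRNA_as_chr15_12323 (3289238 to 3298096, plus strand) was at 1.36 RPKM in female and 2.25 in male nuclear RNA, with log2 0.86, FDR = 0.0954 in the authors' deposited table, and was not called. The antisense RNAs that overlap Igf1 and Igfals did not pass in the authors' deposited table (nuclear log2 -0.54, FDR = 0.224 and log2 -0.09, FDR = 1). The RNA nearest to Stat5b, ncRNA_inter_chr11_10069, lay 40805 bp away (nuclear log2 0.79, FDR = 1 in the authors' deposited table), and that nearest to Igfbp2, ncRNA_inter_chr1_306, was listed at 0 in all groups.

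Around the 10 genes, 64 further genes of the pathway were read in 5 lists. By the authors' deposited table, total RNA had 2 called higher in females and 2 in males, with 60 not called. Nuclear RNA had 8 higher in females and 1 higher in males, with 55 not called. Of the 64, 63 were above 0 in total RNA and 62 in nuclear RNA. Over all genes above 0 the shares called were 4.46% in total and 5.80% in nuclear RNA. The nuclear share was made up of 2.98% higher in females and 2.82% higher in males. Among all genes of at least 1 FPKM the shares called were 9.17% and 13.5%. Whether the lists differ from these shares was not tested. Of the 9 JAK kinases and other STATs, Jak3, Stat2 and Stat3 were called higher in females in nuclear RNA (log2 -0.65, -0.42 and -0.52, adjusted p = 0.00519, 0.00105 and 1.13e-05) in the authors' deposited table, and none of the list in total RNA. Stat3, which transmits interleukin-6 signals, stood at 5.34 FPKM in female and 3.42 in male nuclear RNA. Jak2, the kinase bound to Ghr, was at 0.804 FPKM in female and 0.894 in male nuclear RNA (log2 0.27 with adjusted p = 0.791 in the authors' deposited table).

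None of the 13 other SOCS proteins, phosphatases and adaptors were called in either fraction of the authors' deposited table, which lists no unadjusted p for RefSeq genes. Among them Socs3, induced by STAT3, was at 1.37 FPKM in female and 0.807 in male total RNA (log2 0.09 with adjusted p = 1 in the authors' deposited table). The list's median log2 in the authors' deposited table was -0.09 in total and -0.22 in nuclear RNA.

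Of 15 other IGF system genes, the insulin receptor substrate Irs2 was called higher in females in both fractions and Irs1 in nuclear RNA in the authors' deposited table. Irs2 was at 1.30 FPKM in female and 0.531 in male total RNA, with log2 -0.80 with adjusted p = 0.0107 in the authors' deposited table. In nuclear RNA Irs2 had log2 -0.74 with adjusted p = 0.00192 and Irs1 log2 -0.50 with adjusted p = 0.000182 in the authors' deposited table. Igfbp4, which encodes another IGF carrier and had the highest FPKM of the binding protein genes read, was at 84.1 FPKM in female and 56.0 in male total RNA (log2 -0.11 with adjusted p = 1 in the authors' deposited table). The IGF receptor gene Igf1r was low, at 0.119 FPKM in female and 0.0585 in male total RNA.

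Of 16 other class I cytokine receptors, 1 was called, Csf2rb, a shared subunit of haematopoietic cytokine receptors, higher in females in nuclear RNA (log2 -0.89 with adjusted p = 0.000392 in the authors' deposited table). The hepatic receptors Lifr and Il6st were at 14.9 and 8.10 FPKM in female and 8.74 and 6.40 in male total RNA, with adjusted p = 0.539 and 0.869 in the authors' deposited table. Among 11 transcription factors tied to growth hormone, the repressor Cux2 was called higher in females and the repressor Bcl6 higher in males in both fractions of the authors' deposited table. Bcl6, which is known to compete with STAT5 for binding sites, was at 0.788 FPKM in female and 1.40 in male total RNA (log2 1.41 with adjusted p = 0.00197 in the authors' deposited table). Foxa1 was called higher in males in total RNA (log2 0.65 with adjusted p = 0.0281) and Hnf4a higher in females in nuclear RNA (log2 -0.44 with adjusted p = 6.07e-06) in the authors' deposited table.

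**Figure D5:**
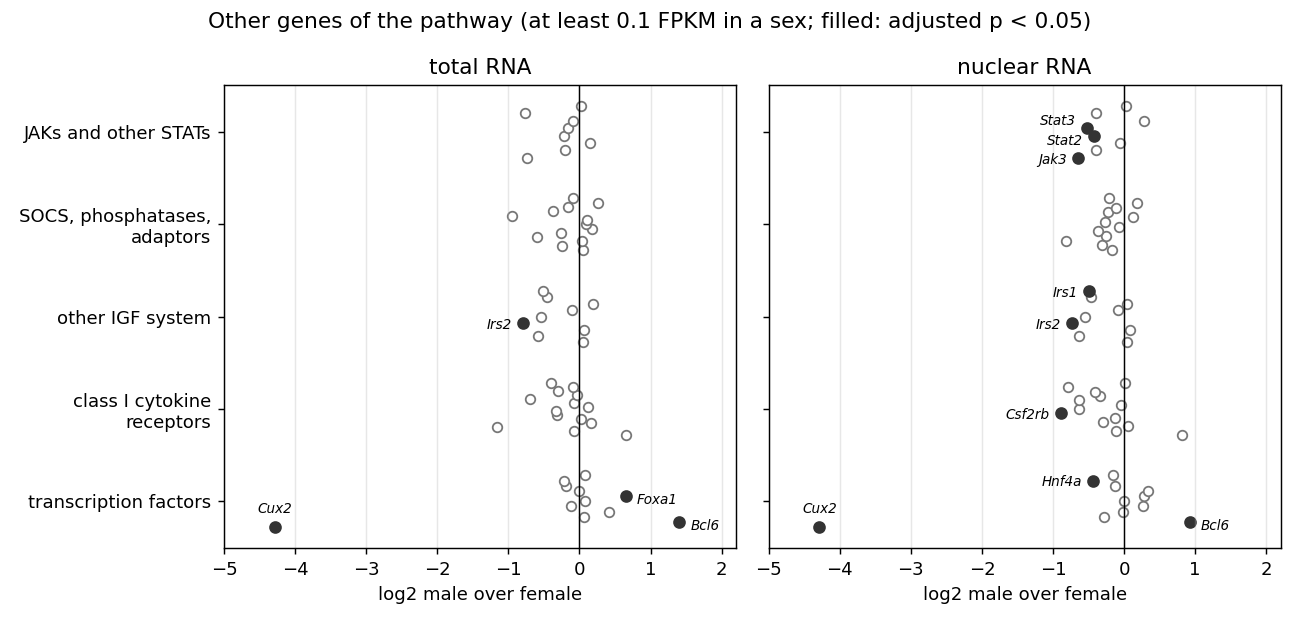
Log2 male over female in the authors' deposited table for the other genes of the pathway with at least 0.1 FPKM in a sex, by list, in total RNA (left) and nuclear RNA (right); filled points were called at adjusted p under 0.05. Cux2 (-4.29 in both) and Bcl6 (1.41 and 0.92) lie farthest out, and the other called genes lie between -0.89 and 0.65.

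Markers of other liver cells were read beside these results. Kupffer cell markers summed to 23.97 FPKM in female and 11.1 in male total RNA, and 3 of the 6 measured (Marco, Clec4f and Csf1r) were called higher in females in total RNA in the authors' deposited table. In nuclear RNA the sums were 5.92 and 5.74 FPKM, and none of the 6 were called in the authors' deposited table. Stellate cell markers summed to 15.4 FPKM in female and 9.84 in male total RNA, with 1 of 5 (Reln) called higher in females in the authors' deposited table. All marker sums given here are of unscaled means, so in total RNA they carry the shift between the sexes. On the scaled log2 of the authors' deposited table, the list medians in total RNA were -0.51 for Kupffer and -0.16 for stellate cell markers. None of the 5 sinusoidal endothelial and none of the 5 lymphocyte markers were called in either fraction of the authors' deposited table. The cholangiocyte marker Spp1 was called higher in males in total RNA (log2 0.82 with adjusted p = 0.00196, by the authors' deposited table), 1 of 5 on its list, whose sum was 2.40 FPKM in females and 2.66 in males. The erythroid marker Alas2, 1 of 4 on its list, was called higher in males in both fractions (log2 2.22 and 2.47, by the authors' deposited table). The erythroid list summed to 33.6 FPKM in female and 36.8 in male total RNA, and 1 of its markers was at 0 in males. No Kupffer, stellate, endothelial or lymphocyte marker was at 0 in a group. The part of these cells in the female-higher values of Igfals, Socs2 and the other genes in total RNA was not tested. In bulk RNA, fewer cells of a type and less RNA per cell cannot be told apart.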

How the data were processed

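Total and nuclear liver RNA was sequenced from pools of mice, and groups were taken from the labels. Per the submitters' processing notes, TopHat2, featureCounts and edgeR were used on mm9, with no versions stated. For RefSeq genes the authors deposited group mean FPKM, a scaled male over female ratio, its signed fold as a score, and an adjusted p-value, per the file headers. For lncRNAs they deposited group mean RPKM, a log2 fold change, a p-value and an FDR, plus a sex-specificity score that was not used here. The deposited log2 values of lncRNAs came from edgeR per the file headers. RefSeq column headers say GeneBody, yet 211 of 300 long genes with the lowest female nuclear FPKM gave a whole implied length (within 0.01 bp), of median 2.70% of the gene span.

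No counts per library were held, so the planned edgeR and DESeq2 fits were not run. Calls rest on the authors' deposited adjusted p-values at 0.05. These set a sex difference against the spread between pools, and the spread between single mice was not seen. Ratios of RefSeq genes were turned into log2 values. No per-sample column was left unused (0). Starts in the RefSeq table count from 0, since end minus start equalled the RefSeq length for 1199 of 1224 small RNA genes, and were printed counted from 1. Library sizes came from the lowest FPKM of small RNA genes, and reads per gene from these sizes and GENCODE M21 exonic lengths of another build, so they are approximate and their errors cover counting only. The recovery was tested on simulated data. In 3 lncRNA entries, none near the 10 genes, the nuclear cells were out of order, and these entries were left out. The marker symbols Tf and Adgre1 were not matched. The genes, lists and tests were chosen with earlier results of these data known. All 10 genes were named, with every called pathway gene and every called lncRNA within 50 kb or, failing that, the nearest one; the uncalled Jak2, Socs3, Igfbp4, Igf1r, Lifr and Il6st were added after their values were seen. Tools were numpy 2.4.6, pandas 2.3.3 and matplotlib 3.10.9 under Python 3.11.15.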

Additional observations from a re-analysis of the deposited data

How the results depend on the processing

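The counts of called genes stayed within 1.5 times their reported value under each alternative that was run. Values of single genes were less stable: 43 were marked as the same, 52 as moved in size and 5 as reversed in sign. In total RNA 4 of the 10 genes were called at an adjusted p under 0.01, 6 under 0.1, 4 with a mean of at least 1 FPKM required and 5 with a fold of at least 1.5 required, beside 5 as reported. In nuclear RNA the counts were 3, 4, 4 and 4, beside 4. Stat5a was the gene lost under 0.01 in both fractions and, in total RNA, with at least 1 FPKM required. Of the called genes, Stat5a had the highest adjusted p in the authors' deposited table (0.0424 in total and 0.0117 in nuclear RNA). By that measure its call is the least firm. Its log2 in total RNA went from -0.60 to -0.12 when 1 FPKM was added to each mean before centring. Adding 1 FPKM narrows the differences of any gene this low, so that move does not bear on the call. In total RNA the same setting moved Igfbp1 from -1.22 to -0.76, Socs2 from -0.73 to -0.45 and Prlr from -1.61 to -1.35. Igfals hardly changed (-0.67 to -0.68). Windows of 10 and 100 kb gave 2 and 3 called lncRNAs, beside 3. On the unscaled quotient of means in total RNA, Ghr turned to -0.18 and Igfbp2 to -0.29, both uncalled; the construction of that quotient, which leaves out the scaling between libraries, shows the cause. Centred on genes of at least 10 FPKM, the nuclear against total value turned to 0.40 in females and 0.68 in males for Ghr and to 0.20 in males for Igf1; that centring moves all genes of a sex by the same amount, which shows the cause. Among the 10 genes, no called sex difference changed sign under the 3 other scalings, which were not run for the other genes or the lncRNAs. Leaving out each pool and the fits with DESeq2 were not run because the tables hold group means. No paired analysis was possible because the tables carry no values per pool. Depth was lowest for Igfbp2 in female nuclear RNA (about 80.2 reads), Igfbp1 in male total RNA (80.8) and Stat5a in male total RNA (95.7).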

Other observations

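For each called gene, the RefSeq gene outside the 10 with the closest pattern over the 4 group means was found among 7296 genes of at least 1 FPKM in a group, by the distance of log2(FPKM + 1) after subtracting each gene's own mean. It was Acadsb, an acyl-CoA dehydrogenase gene, for Ghr (distance 0.112) and Sqrdl for Igfals (0.141). It was Rasgef1b for Socs2 (0.0263), Sall1 for Igfbp1 (0.0982), Mir3113 for Stat5a (0.0415) and Mir6392 for Prlr (0.409). Acadsb stood at 7.33 FPKM in female and 6.38 in male total RNA, and at 2.36 and 3.19 in nuclear RNA, with nuclear log2 0.54 and adjusted p = 0.000649 in the authors' deposited table. Rasgef1b was called higher in females in both fractions of the authors' deposited table (log2 -1.02, adjusted p = 2.97e-06 in total RNA and log2 -0.63, adjusted p = 0.000941 in nuclear RNA). Sall1, a zinc finger gene, had log2 -1.54, adjusted p = 1.78e-17 in total RNA and log2 -1.87, adjusted p = 6.55e-26 in nuclear RNA in the authors' deposited table. Mir6392 was listed at 0 in male total RNA, and neither microRNA gene was called in the authors' deposited table. At a given FPKM a short gene, such as a microRNA gene, rests on fewer reads than a long one. Reads were not worked out for either microRNA gene, so their likeness to Prlr and Stat5a may reflect counting noise. Adding 1 FPKM narrows the differences of a low gene such as Stat5a, so its small distance does not mean equal sex differences. In the authors' deposited table Mir3113 had log2 -0.10 in total and -0.36 in nuclear RNA, beside -0.60 and -0.69 for Stat5a. With 4 group means per gene, likeness is a description of these means only.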
